A study of Mus musculus with 11 samples.

Results

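The nuclear genes for the subunits of the oxidative phosphorylation complexes were followed in RNA of the mouse yolk sac at embryonic day 9.5. They were matched by symbol, as the Nduf genes of series a, b, c, s and v, Sdha to Sdhd and the Uqcr genes. Also matched were the Cox genes numbered 4 to 8 with a letter a to c, and the Atp5 genes, with Cyc1 and Cycs. These members were chosen with earlier results of these data known. The rule matched 80 of the 15061 genes in the table, of which 36 belong to complex I, 4 to complex II, 10 to complex III with its partner cytochrome c, 13 to complex IV and 17 to complex V. By its symbol the rule took Ndufa4 into complex I, although its protein is now counted with complex IV, and Atp5s and Atp5sl into complex V, although RefSeq names them Dmac2l and Dmac2. Subunits encoded by mitochondrial DNA were not analysed here. Of the 80 genes, 34 share a stretch of at least 100 bases at 95% identity with another annotated gene, which makes their levels less certain. Among those named below are Ndufs1, Ndufs6, Ndufa12, Ndufb6, Ndufc1, Uqcr10, Uqcr11, Uqcrb, Cycs, Cox5a, Cox7a2l, Cox7b, Atp5g1, Atp5g2 and Atp5o.

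The yolk sac surrounds the embryo at this stage; its outer layer, the visceral endoderm, takes up and exports nutrients, and its inner mesoderm carries vessels and blood. The 4 control libraries (control 1 to 4) came, by their titles, from Hand1 fx/+ embryos. These have 1 floxed and 1 normal allele of the basic helix-loop-helix factor Hand1, and no Cre is named for them. The 3 H1CKO libraries (H1CKO 5 to 7) came from T-Cre +/-; Hand1 fx/fx embryos, in which a Cre driven by T (brachyury) acts in descendants of the primitive streak, and the 4 H1H2H2 libraries (H1H2H2 8 to 11) came from Hand1 H2/H2 embryos, where a HAND2 replacement allele stands in for Hand1. The labels do not say whether the libraries of a group came from separate embryos, and the first 2 controls share a yolk sac number, so p-values measure the spread between these libraries, which may be partly technical. Only the labels of the H1CKO group name a Cre, and its descriptions name a knockout over a floxed allele where the genotype field names 2 floxed alleles. The control descriptions and file headers read WT, where the sample titles name Hand1 fx/+.

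Oxidative phosphorylation moves electrons from NADH (complex I) and succinate (complex II) through complex III and cytochrome c to oxygen (complex IV), and the proton gradient built on the way drives ATP synthesis by complex V. Most subunits are encoded in the nucleus, made in the cytosol and imported, while a small core is made inside the mitochondrion. Some subunits of complexes I and IV have paired isoforms, with one used in most tissues and the other in heart and skeletal muscle, testis, or cells short of oxygen.

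Library totals ran from 12019377 to 16824228 reads. Hand1 itself stood at 31.1 to 91.1 CPM (counts scaled to a common library size, TMM-normalised) in control, 5.95 to 10.8 CPM in H1CKO and 4.35 to 15.2 CPM in H1H2H2. Hand2 stood at 43.5, 42.3, 47.2 and 31.7 CPM in control, 70.5, 72.8 and 91.8 CPM in H1CKO and 81.03, 23.6, 35.9 and 33.7 CPM in H1H2H2. It was higher in H1CKO (log2 change 0.93, SE 0.319, adjusted p = 0.0273), a call lost under 6 of 22 alternatives, while in H1H2H2 only library 8 lay above the controls (log2 change 0.08, SE 0.3, adjusted p = 0.873, and -0.42 without that library), so the Hand2 counts alone do not check the H1H2H2 label; the groups are called by their labels. By Xist and Y-linked reads, 3 control, no H1CKO and 1 H1H2H2 libraries were female, so sex differs between the groups. The tissue's defining visceral endoderm markers, 20 genes that were all detected, summed to 40172 to 46416 CPM in control, 10336 to 17552 CPM in H1CKO and 47978 to 50839 CPM in H1H2H2. Heart muscle markers (18 tested genes, of which Myl2 and Nppa were at 0 in control) summed to 54.3 to 246 CPM in control, 4475 to 11673 CPM in H1CKO and 42.7 to 88.5 CPM in H1H2H2. Neural tube and somite markers (15 genes, of which Neurog1 and Neurog2 were at 0 in control and also Sox1, Otx2 and Hes5 in H1H2H2) summed to 46.0 to 50.6 CPM in control, 263 to 287 CPM in H1CKO and 40.3 to 66.8 CPM in H1H2H2. In each H1CKO library the heart sum and the neural and somite sum lay above those of all other libraries. Of the genes summed, 8 heart and 14 neural and somite markers passed the filter on low counts through H1CKO alone. The source of these transcripts was not tested. In bulk tissue fewer cells of a type cannot be told apart from less RNA per cell. Library H1H2H2 8 stood apart from H1H2H2 9 to 11, and values of this group are given with it and, for the genes and counts named, without it.

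Promoter sequence was at hand for 67 of the 80 genes (RefSeq, GRCm38.p6, 250 bases before to 50 bases after the start). The windows were searched on both strands for motifs of factors known for nuclear respiratory genes. The site of nuclear respiratory factor 1 (spelled in capitals in the Uqcrc1 promoter printed next) was found in 5 of the 67 windows (7.46%), against 1.96% of the 11796 promoters of genes in the table. The ETS site bound by GABP (CCGGAAG) was found in 15 windows (22.4%), against 16.8% of all. The core of the hypoxia response element (ACGTG), which reads on both strands within CACGTG and so counts there on each, was found in 19 windows (28.4%), against 25% of all. The site of estrogen-related receptors (TCAAGGTCA) was found in 2 windows (2.99%), those of Atp5g3 and Sdhd, against 0.229% of all. A match in such a window is a description of its letters and not a measured site.

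4 promoters are printed: Atp5g3 and Sdhd, the pair with the estrogen-related receptor motif, Atp5e, the subunit gene with the highest fold change in H1H2H2, and Uqcrc1, chosen as an example with the nuclear respiratory factor 1 motif. Each runs 5′ to 3′ along its gene, in lower case, with the searched motifs in capitals on either strand. In Atp5g3 (chr2:73911277-73911576 on the minus strand) the capitals are CACGTG and then the receptor motif read on the other strand. In Sdhd (chr9:50603800-50604099 on the minus strand) they are an ETS site and the receptor motif, both on the other strand. In Atp5e (chr2:174464052-174464351 on the minus strand) they are an ETS site on the other strand, and in Uqcrc1 (chr9:108936398-108936697 on the plus strand) the nuclear respiratory factor 1 site.
Atp5g3: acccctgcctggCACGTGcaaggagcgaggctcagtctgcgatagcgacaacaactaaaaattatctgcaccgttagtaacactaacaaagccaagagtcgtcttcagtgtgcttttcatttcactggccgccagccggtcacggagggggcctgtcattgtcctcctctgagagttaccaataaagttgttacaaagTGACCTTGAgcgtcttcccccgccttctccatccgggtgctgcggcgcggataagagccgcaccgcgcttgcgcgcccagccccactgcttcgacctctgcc
Sdhd: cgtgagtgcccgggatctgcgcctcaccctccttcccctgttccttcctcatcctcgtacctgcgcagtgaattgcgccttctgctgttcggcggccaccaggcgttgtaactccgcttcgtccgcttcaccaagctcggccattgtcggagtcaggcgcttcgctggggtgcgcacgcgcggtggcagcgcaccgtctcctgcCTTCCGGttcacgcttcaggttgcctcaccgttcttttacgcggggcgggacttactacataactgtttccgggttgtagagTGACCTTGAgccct
Atp5e: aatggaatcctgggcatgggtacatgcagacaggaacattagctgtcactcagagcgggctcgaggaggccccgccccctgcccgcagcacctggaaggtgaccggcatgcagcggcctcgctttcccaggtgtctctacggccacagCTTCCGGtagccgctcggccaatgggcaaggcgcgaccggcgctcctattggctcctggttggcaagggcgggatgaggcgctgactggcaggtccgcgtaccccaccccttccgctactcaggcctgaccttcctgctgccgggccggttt
Uqcrc1: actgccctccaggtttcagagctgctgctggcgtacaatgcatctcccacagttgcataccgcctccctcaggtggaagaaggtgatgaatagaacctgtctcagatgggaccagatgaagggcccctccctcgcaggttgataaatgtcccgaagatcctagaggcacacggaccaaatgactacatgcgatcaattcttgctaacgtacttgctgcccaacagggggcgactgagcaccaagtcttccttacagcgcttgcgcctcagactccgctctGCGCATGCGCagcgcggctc

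In control yolk sac the 78 subunit genes other than Cox6a2 and Ndufa4l2 summed to 0.708% to 0.781% of the nominal CPM total. Complex V held the most of this, with 0.308% to 0.342%. These percentages are TMM-scaled levels and not exact shares of a library's reads. The TMM factors ran from 0.946 in H1H2H2 10 to 1.08 in H1CKO 6. Compared per length (CPM per kilobase of the gene model, mean of 4 libraries), the catalytic β subunit gene Atp5b was the highest of all, at 550.5, and its α partner Atp5a1 the next in complex V, at 365. Complex IV was led by Cox6b1 at 320.5, complex III by Uqcrb at 208, complex I by the membrane arm subunit Ndufb10 at 127 and complex II by the membrane anchor Sdhd at 90.7 CPM per kilobase. The lowest in each complex were Ndufa4l2 at 0.555, Sdhc at 41.2, Cycs at 31.6, Cox6a2 at 0.0251 and Atp5s at 3.30 CPM per kilobase. The spread between control libraries was small for these genes, with a median SD of 0.0798 on the log2 scale against 0.142 for all genes tested.

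The first comparison addresses the yolk sac after T-Cre deletion of Hand1. Transcripts of all 5 complexes were lower in H1CKO: 43 of the 80 subunit genes fell and 3 rose at an edgeR adjusted p under 0.05. Among the 3 were Cox6a2 and Ndufa4l2, which passed the filter on low counts through H1CKO alone. Of all 14671 genes tested, 25.6% fell and 27% rose, 52.6% in all. The median log2 fold change was -0.29 over the subunit genes and 0.03 over all genes, and 72 of the 80 were below 0. On the TMM-scaled level used above, again without Cox6a2 and Ndufa4l2, the subunit genes summed to 0.622%, 0.590% and 0.582% in the 3 H1CKO libraries. All were under the lowest control. The libraries of the 2 groups did not overlap for 54 genes that were lower and 3 that were higher in H1CKO, where 29.1% and 31.5% of all genes behaved so. Beside this fall, the summed visceral endoderm markers were below, and the summed heart, neural and somite markers above, every control in all 3 H1CKO libraries. Below every control were also the sums of mesothelium and mesoderm markers (1418 to 2162 CPM, against 5514 to 6237), of macrophage markers (34.6 to 47.7 CPM, against 103.5 to 119.3) and of trophoblast and decidua markers (25.6 to 76.2 CPM, against 100.7 to 257.9). Of the 9 mesothelium and mesoderm markers tested, which include Hand1 itself, 6 fell and 1 rose. The sums of endothelium markers (706 to 846 CPM, against 620 to 761) overlapped the controls. Those of primitive erythroid markers did too (2573 to 8045 CPM, against 2834 to 12515). The part of these cell types in the fall was not tested. The count of 43 became 26 when a trend of each library with gene length was taken out, a setting chosen after seeing the data, under which 24.3% of all genes fell. With a term for sex in the fit 32 fell, where 20.2% of all genes did. As no H1CKO library was female and most controls were, that term overlaps with the group.

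**Figure D1:**
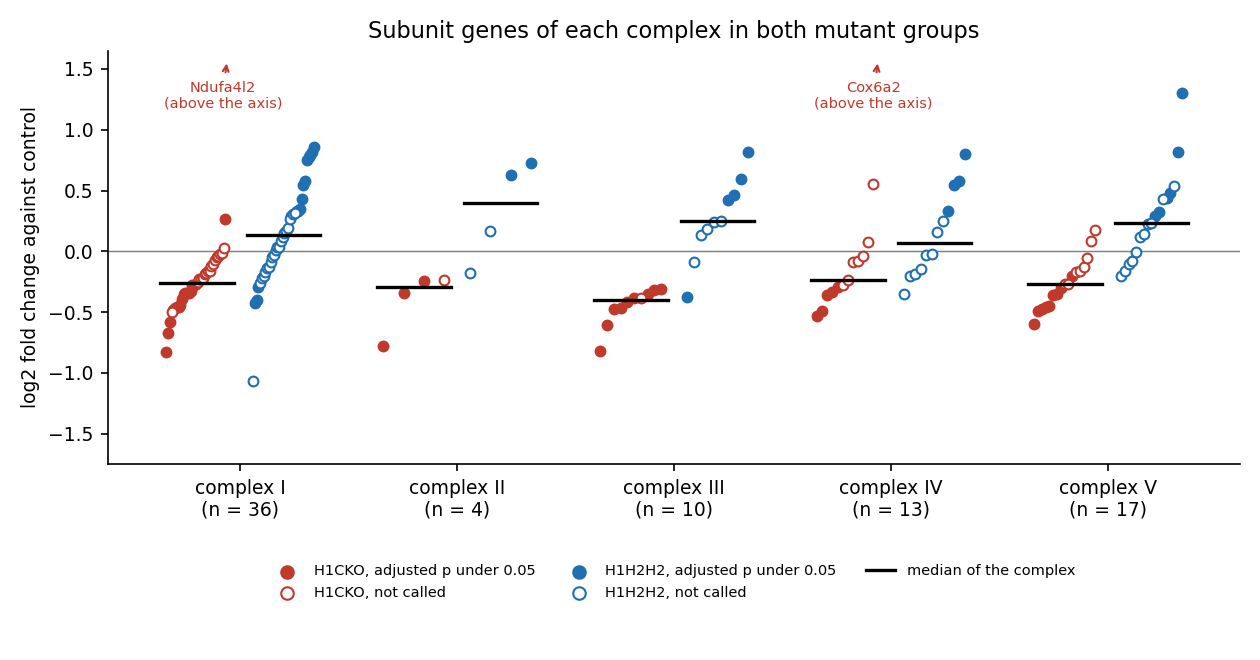
Log2 fold change against control of each subunit gene (points), by complex, in H1CKO (red) and H1H2H2 (blue). Filled points passed an edgeR adjusted p of 0.05, bars are medians, Ndufa4l2 and Cox6a2 lie above the axis in H1CKO, and Cox6a2, with 1 count in control and 0 in H1H2H2, is not drawn for H1H2H2. Most red points lie under 0, while the blue points of one complex lie on both sides of it.

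In complex I, 17 genes fell and 2 rose. Of the 7 nuclear core subunits, among which are those that hold the flavin and the iron-sulfur clusters, 6 fell. Ndufs1, the largest iron-sulfur subunit, stood at 121, 123, 126 and 135 CPM in the control libraries and 93.5, 94.8 and 86.8 CPM in H1CKO. All H1CKO values were under all control values, with a log2 fold change of -0.46 (SE 0.0938, edgeR adjusted p = 0.00134). The lowest fold change of the complex was that of Ndufa8, an accessory subunit on the intermembrane side (chromosome 2, 36036334 to 36049292, mm10). Ndufa8 stood at 53.3, 58.5, 68.7 and 66.7 CPM in control and 36.05, 31.6 and 36.9 CPM in H1CKO, without overlap and with a log2 fold change of -0.83 (SE 0.106, edgeR adjusted p = 5.31e-05). Ndufb10, of the membrane arm, was next, with a log2 change of -0.67 (SE 0.106, adjusted p = 0.000217). Ndufa7, an accessory subunit of the matrix arm named here after its values were seen, went the other way, from 34.6, 32.6, 29.6 and 33.3 CPM in control to 40.1, 36.4 and 40.5 CPM in H1CKO. The groups of Ndufa7 did not overlap, with a log2 fold change of 0.26 (SE 0.0919, edgeR adjusted p = 0.0301). This call was lost under 10 of 22 alternatives, among them a term for sex and the removal of any 1 control or H1CKO library.

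In complex II, which is also an enzyme of the tricarboxylic acid cycle, 3 of 4 genes fell. Sdhd, one of the membrane anchors (chromosome 9, 50596340 to 50603849), stood at 115, 108, 123 and 119.6 CPM in control and 83.4, 61.1 and 59.3 CPM in H1CKO, which gave a log2 fold change of -0.78 (SE 0.186, edgeR adjusted p = 0.00391). H1CKO 5 was the highest of its group and still under every control. The iron-sulfur subunit Sdhb fell by a smaller amount (log2 change -0.34, SE 0.0788, adjusted p = 0.0031), as did the flavoprotein Sdha (log2 change -0.24, SE 0.0874, adjusted p = 0.0341), whose call did not hold with a term for sex, upper-quartile scaling or the length trend taken out, or without H1CKO 5 or 7. Sdhc, the other anchor, did not pass the test, at -0.24 (SE 0.119, adjusted p = 0.109).

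Complex III had the lowest median of the 5 complexes, at -0.40, and 9 of its 10 genes fell. Uqcrq, a small subunit, stood at 32.5, 30.8, 37.6 and 40.4 CPM in control and 24.4, 22.2 and 23.1 CPM in H1CKO, giving a log2 fold change of -0.605 (SE 0.127, edgeR adjusted p = 0.00165). For all 10 genes the H1CKO libraries lay under the control libraries. Cyc1, the cytochrome c1 of the complex, fell by 0.38 (SE 0.131, adjusted p = 0.0263) on the log2 scale, a call not held with a term for sex, with the length or GC trend taken out, or without H1CKO 6 or 7. Uqcrc1, a core protein named for its promoter printed above, stood at 144, 148, 157 and 169 CPM in control and 128, 112 and 123 CPM in H1CKO. It had a log2 change of -0.35 (SE 0.107, adjusted p = 0.0148), which did not pass once sex entered the fit or the length trend was taken out. With the term for sex the log2 change was -0.38 (adjusted p = 0.0529). Uqcr11 had the smallest p of the subunits proper, at -0.42 (SE 0.0718, adjusted p = 0.000417). Cycs, the soluble cytochrome c, stood at 91.3, 92.2, 95.5 and 108 CPM in control and 62.9, 57.3 and 44.6 CPM in H1CKO, giving a log2 fold change of -0.82 (SE 0.114, edgeR adjusted p = 9.29e-05). That value is uncertain, since 51 other annotated genes share a stretch of at least 100 bases at 95% identity with Cycs. The iron-sulfur Rieske subunit Uqcrfs1 was the gene that did not pass, at -0.38 (SE 0.167, adjusted p = 0.0711).

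In complex IV, 5 genes fell and Cox6a2 rose. Cox6a1, the form of subunit 6a used outside muscle, stood at 120.1, 138, 138 and 143 CPM in control and 102, 90.9 and 94.5 CPM in H1CKO, giving a log2 fold change of -0.49 (SE 0.097, edgeR adjusted p = 0.00111). Its groups did not overlap. Cox5a fell by 0.53 (SE 0.15, adjusted p = 0.0104), with 38.9% of its exon bases overlapped by another gene, and Cox7a2 by 0.36 (SE 0.0981, adjusted p = 0.00814). Both calls were lost with a term for sex in the fit, which gave -0.52 (adjusted p = 0.0562) for Cox5a and -0.31 (adjusted p = 0.0786) for Cox7a2.

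In complex V, 9 of 17 genes fell and none rose by edgeR, DESeq2 or limma-voom, nor at an unadjusted p under 0.05. The ring that turns with the proton flow is built from 1 mature protein encoded by 3 genes, and these did not move together. Atp5g1 stood at 84.8, 76.4, 82.2 and 84.7 CPM in control and 59.999, 53.9 and 49.2 CPM in H1CKO, without overlap and with a log2 fold change of -0.59 (SE 0.0874, edgeR adjusted p = 0.000138); 19 near-identical genes make its level uncertain. Atp5g3, which has none, fell by 0.49 (SE 0.156, adjusted p = 0.0191), a call that a term for sex removed, as did leaving out H1CKO 7. With the term for sex Atp5g3 had -0.46 (adjusted p = 0.0979). Atp5g2 had a log2 change of 0.09 (SE 0.087, adjusted p = 0.424), with groups that overlapped. Of the ring transcripts per length, Atp5g2 made up 16.2% ± 0.801 (SD, n = 4) in control and 22.95% ± 2.91 (SD, n = 3) in H1CKO. Atp5o, of the stalk that holds the catalytic head, had the second smallest p of the complex, at -0.47 (SE 0.0707, adjusted p = 0.000157). Its level is uncertain too, with 2 near-identical genes and a longest match of 643 bases.

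**Figure D2:**
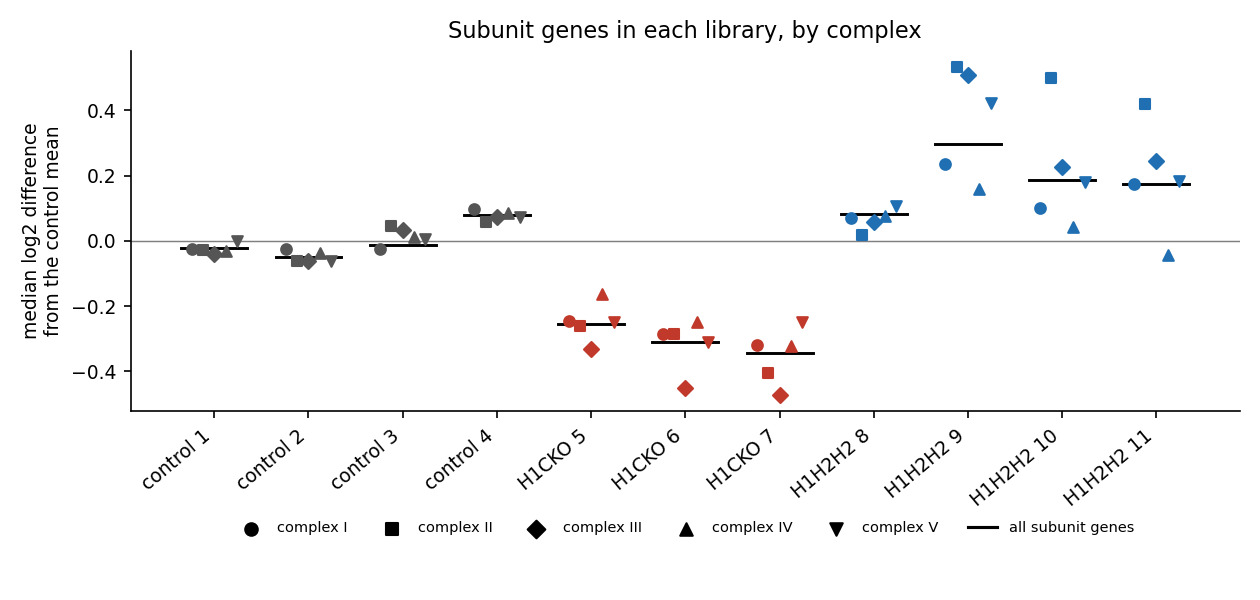
Median over the genes of each complex (symbols) and over all subunit genes (bars) of the log2 difference from the control mean, in each library, without Cox6a2 and Ndufa4l2. The H1CKO bars lie at -0.26 to -0.34, H1H2H2 8 at 0.08 and H1H2H2 9 to 11 at 0.18 to 0.30.

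Against the general fall, Cox6a2, Ndufa4l2 and Cox4i2 were high in H1CKO. Cox6a2, the heart and skeletal muscle form of subunit 6a (chromosome 7, 128205435 to 128206366), had 1 read in all 4 control libraries, 231 reads in the 3 H1CKO libraries (49 to 109 each) and 0 reads in H1H2H2. The ratio of the pooled rates to control was 339.2, with a 95% counting interval of 60.3 to 13460, and the level was at least 118.5-fold higher than in H1H2H2, from a floor of 3 counts over the group. Both values cover counting error only, and edgeR gave an adjusted p of 1.56e-05 against control and 5.3e-06 between the mutants. Ndufa4l2, a target of hypoxia-inducible factor that lowers complex I activity (chromosome 10, 127514939 to 127517156), stood at 0.426, 0.275, 1.04 and 0.397 CPM in control, 10.1, 11.6 and 18.2 CPM in H1CKO and 0.141, 0.559, 0.198 and 0.0688 CPM in H1H2H2. All H1CKO libraries lay above all others, with a log2 fold change of 4.63 (SE 0.451, edgeR adjusted p = 9.86e-06). Both genes passed the filter on low counts through H1CKO alone, so that a difference was built into their being tested.

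Cox4i2, the hypoxia-induced form of subunit 4 and outside the symbol rule, stood at 0.710, 0.550, 0.745 and 0.993 CPM in control, 4.87, 7.02 and 8.78 CPM in H1CKO and 0.494, 0.435, 0.727 and 0.275 CPM in H1H2H2, with a log2 fold change of 3.18 (SE 0.307, edgeR adjusted p = 9.51e-06). Its common counterpart Cox4i1 stood at 161, 149, 153 and 169.7 CPM in control and 139, 138 and 138 CPM in H1CKO, a log2 change of -0.19 (SE 0.0886, adjusted p = 0.0873). The other muscle form measured, Cox7a1, which is used in heart and skeletal muscle, stood at 4.12, 3.50, 3.35 and 4.76 CPM in control and 6.60, 3.51 and 2.37 CPM in H1CKO, with overlapping groups and a log2 change of 0.08 (SE 0.307, adjusted p = 0.853). Cox6b2, known from testis, did not pass either, at 0.55 (SE 0.39, adjusted p = 0.255). By share of the pair's transcripts per length, Cox6a2 made up 4.71% ± 1.57 (SD, n = 3) and Ndufa4l2 13.02% ± 4.75 (SD, n = 3) in H1CKO, so the usual forms remained the larger part. H1CKO 5, the library with the most heart marker transcripts (11673 CPM, against 5232 in H1CKO 6 and 4475 in H1CKO 7), also had the most Cox6a2 and Cox7a1 of its group, while Ndufa4l2 and Cox4i2 were highest in H1CKO 7. Cox6a2 stood at 3.74 CPM (49 reads) in H1CKO 6 and 5.57 CPM (73 reads) in H1CKO 7, and Cox7a1 at 3.51 and 2.37 CPM. The part of heart tissue in these values was not tested.

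**Figure D3:**
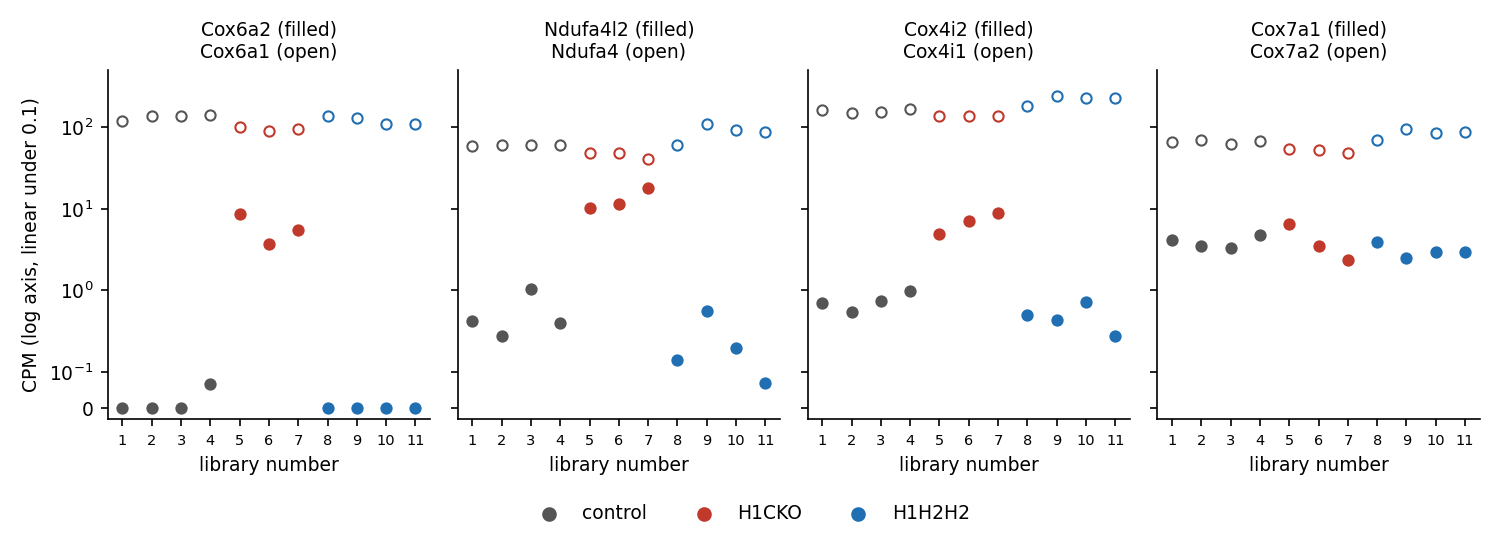
CPM of 4 restricted isoforms (filled) and their common counterparts (open) in each library, on a log axis that is linear under 0.1. Cox6a2, Ndufa4l2 and Cox4i2 lie higher in the 3 H1CKO libraries than in the other 8, and Cox7a1 does not.

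The second comparison addresses HAND2 in place of Hand1. In H1H2H2, 28 of the 80 subunit genes rose and 4 fell (edgeR adjusted p under 0.05), where 9.49% of all genes rose and 7.16% fell. The median log2 fold change was 0.18 over the subunit genes and -0.01 over all genes; without Cox6a2, which had 1 read in both groups together, it was 0.19. The groups did not overlap for 26 genes that were higher and 2 that were lower, where 11% and 8% of all genes behaved so. With upper-quartile scaling 26 rose and 6 fell, while of all genes 7.38% rose and 9.07% fell. On the TMM-scaled level and without Cox6a2 and Ndufa4l2, the subunit genes summed to 0.783% in H1H2H2 8, close to control 4. They summed to 0.956%, 0.844% and 0.848% in H1H2H2 9, 10 and 11. Markers of primitive erythroid cells summed to 3193 CPM in H1H2H2 8 and to 15796, 9851 and 8868 CPM in the others, against 2834 to 12515 CPM in control, and those of mesothelium and mesoderm to 7227 CPM in H1H2H2 8 and 2808, 4583 and 5034 CPM in the others, and their part was not tested. Without H1H2H2 8 the counts were 39 higher and 10 lower, of 16.9% and 17.6% of all genes. The count of 28 fell to 15 with a term for sex, where 3.14% of all genes rose, and to 14 or 15 without control 1, 2 or 3 or H1H2H2 9 or 11, where 2.94% to 4.08% of all genes rose, and the count of 4 lay between 0 and 10 over the libraries left out.

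H1H2H2 8 lay inside the range of the 4 controls for 41 of the 80 genes (51.2%; 49.2% of all genes tested) and inside the range of H1H2H2 9 to 11 for 14 of them (17.5%; 29.3% of all genes). Its median log2 difference from control was 0.08 over the subunit genes, against 0.21 for the mean of the other 3 libraries. The median SD of the subunit genes on the log2 scale was 0.19 over the 4 libraries and 0.103 over H1H2H2 9 to 11.

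In complex I, 12 genes rose and 3 fell. Ndufs4, an accessory subunit whose loss causes an encephalopathy in mice (chromosome 13, 114287795 to 114388094), stood at 23.5, 26.2, 23.4 and 24.6 CPM in control and 29.4, 45.4, 42.3 and 46.97 CPM in H1H2H2. All 4 libraries were above control, H1H2H2 8 least, with a log2 fold change of 0.75 (SE 0.129, edgeR adjusted p = 0.00667); without H1H2H2 8 it was 0.86 (adjusted p = 6.33e-05). Ndufb6, of the membrane arm, had the highest log2 fold change of the complex, 0.86 (SE 0.179, adjusted p = 0.0125), with 34.6% of its exon bases overlapped by Smim27, and Ndufc1 rose with 0.79 (SE 0.161, adjusted p = 0.0116), with 25 near-identical genes; without H1H2H2 8 they had 1.01 (adjusted p = 0.000186) and 0.92 (adjusted p = 0.000272). Of the 7 core subunits 1 passed the test: Ndufs1 stood at 132, 173, 170.4 and 168 CPM in H1H2H2, giving a log2 fold change of 0.35 (SE 0.0855, edgeR adjusted p = 0.0211). H1H2H2 8 lay within the controls and the other 3 above them, and without H1H2H2 8 the value was 0.41 (adjusted p = 0.000458). The call was lost once sex entered the fit, and on leaving out control 1, 2 or 3 or any of H1H2H2 9 to 11. The 3 that fell were Ndufs6, Ndufa12 and Ndufv3, of which the latter pair were named after their values were seen. Ndufs6, a zinc-binding subunit of the NADH-oxidising arm, stood at 52.3, 49.7, 63.96 and 65.2 CPM in control and 52.7, 39.9, 41.5 and 37.8 CPM in H1H2H2, giving a log2 fold change of -0.43 (SE 0.125, edgeR adjusted p = 0.0382). H1H2H2 8 lay within the controls and the other 3 below them, and with it left out the log2 fold change was -0.56 (adjusted p = 0.0032). Ndufa12 had -0.398 (SE 0.104, adjusted p = 0.0272) and Ndufv3 -0.296 (SE 0.0934, adjusted p = 0.0488), or -0.52 (adjusted p = 0.00101) and -0.38 (adjusted p = 0.00587) without H1H2H2 8. None of the 3 calls held without control 1, 3 or 4 or any of H1H2H2 9 to 11, and those of Ndufs6 and Ndufv3 were also lost with a term for sex.

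The 2 membrane anchors of complex II rose, while the catalytic subunits did not pass the test. Sdhd stood at 126, 237, 193 and 215 CPM in H1H2H2, giving a log2 fold change of 0.73 (SE 0.168, edgeR adjusted p = 0.0176). Sdhc stood at 48.6, 46.9, 47.7 and 51.1 CPM in control and 57.4, 81.9, 82.8 and 78.3 CPM in H1H2H2, giving a log2 fold change of 0.63 (SE 0.108, edgeR adjusted p = 0.00667). In both genes H1H2H2 8 was just above the highest control and the other libraries well above, and without it the values were 0.87 (adjusted p = 0.000278) for Sdhd and 0.72 (adjusted p = 5.68e-05) for Sdhc. A term for sex removed the Sdhd call, as did leaving out control 1, H1H2H2 9 or H1H2H2 11. Sdha had a log2 change of 0.17 (SE 0.0803, adjusted p = 0.151) and Sdhb of -0.18 (SE 0.0722, adjusted p = 0.105); without H1H2H2 8 Sdha passed, at 0.23 (adjusted p = 0.0118), and Sdhb did not, at -0.19 (adjusted p = 0.067).

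In complex III, 4 genes rose and Uqcrb fell. Uqcrfs1, the Rieske protein that passes electrons to cytochrome c1 (chromosome 13, 30540312 to 30545316), stood at 59.8, 58.9, 55.2 and 61.5 CPM in control and 69.5, 131, 104 and 110.4 CPM in H1H2H2, giving a log2 fold change of 0.82 (SE 0.151, edgeR adjusted p = 0.00839). Uqcr10 went from 43.97, 41.4, 45.05 and 45.4 CPM to 51.2, 72.7, 70.6 and 70.4 CPM, a log2 fold change of 0.59 (SE 0.11, edgeR adjusted p = 0.00839). No H1H2H2 library overlapped the controls in either gene, and leaving out H1H2H2 8 gave 0.95 (adjusted p = 7.58e-05) for Uqcrfs1 and 0.68 (adjusted p = 0.000138) for Uqcr10. Uqcrb, which binds ubiquinone in the same complex, stood at 108, 103, 102 and 106 CPM in control and 106, 74.4, 69.9 and 73.3 CPM in H1H2H2. H1H2H2 8 sat among the controls, while H1H2H2 9 to 11 sat below every control and every H1CKO library. The fit over all 4 gave a log2 fold change of -0.37 (SE 0.115, edgeR adjusted p = 0.0451), a call lost when any control or any of H1H2H2 9 to 11 was left out, and without H1H2H2 8 it was -0.55 (adjusted p = 0.000154). Uqcrb has 3 near-identical genes.

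In complex IV 4 of 13 genes rose. Cox5a (chromosome 9, 57521232 to 57532426) stood at 71.2, 71.7, 74.2 and 77.7 CPM in control and 89.01, 154, 131 and 139 CPM in H1H2H2, all above control, with a log2 fold change of 0.800 (SE 0.136, edgeR adjusted p = 0.00662); without H1H2H2 8 it was 0.92 (adjusted p = 4.15e-05). Cox7a2l, whose protein joins complexes III and IV into a supercomplex, had the smallest adjusted p of all subunit genes in this comparison, 0.58 (SE 0.0896, adjusted p = 0.00505). It stood at 59.6, 59.003, 65.4 and 64.9 CPM in control, 57.2, 58.3 and 60.8 CPM in H1CKO and 104, 103, 80.1 and 85.4 CPM in H1H2H2. Here H1H2H2 8 was as high as H1H2H2 9, unlike in the genes above, and with it left out the log2 fold change was 0.51 (adjusted p = 0.00138). The common isoforms Cox6a1 (log2 change -0.15, SE 0.0885, adjusted p = 0.254), Cox6b1 (log2 change -0.205, SE 0.0966, adjusted p = 0.154) and Cox8a (log2 change -0.02, SE 0.0811, adjusted p = 0.88) did not pass. Without H1H2H2 8, Cox6a1 (log2 change -0.23, adjusted p = 0.0412) and Cox6b1 (log2 change -0.33, adjusted p = 0.00365) fell. Cox4i1 rose, from 161, 149, 153 and 169.7 CPM to 184, 240.0, 231 and 226 CPM, a log2 fold change of 0.48 (SE 0.0815, edgeR adjusted p = 0.00662), or 0.54 (adjusted p = 0.000139) without H1H2H2 8. The complex as a whole had a median of -0.02, or 0.07 without Cox6a2.

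In complex V 6 of 17 genes rose. Atp5e, the ε subunit of the catalytic head (chromosome 2, 174461075 to 174464101), had the highest fold change of the subunit genes in H1H2H2. It stood at 20.4, 21.6, 16.8 and 22.03 CPM in control and 26.96, 67.9, 50.9 and 53.9 CPM in H1H2H2, giving a log2 fold change of 1.303 (SE 0.22, edgeR adjusted p = 0.00643). H1H2H2 8 was little above the controls, the other 3 far above them, and without H1H2H2 8 the log2 fold change was 1.49 (adjusted p = 5.68e-05). The δ subunit gene Atp5d of the same central stalk, set beside it after its values were seen, had -0.204 (SE 0.101, adjusted p = 0.171), and without H1H2H2 8 it fell with -0.33 (adjusted p = 0.00604). Atp5g3 (chromosome 2, 73908447 to 73911326) stood at 118, 115, 124 and 131 CPM in control and 144, 250.5, 229 and 238 CPM in H1H2H2, giving a log2 fold change of 0.82 (SE 0.142, edgeR adjusted p = 0.00667); without H1H2H2 8 it was 0.95 (adjusted p = 2.05e-05). Of the ring transcripts per length Atp5g3 made up 53.7% ± 1.00 (SD, n = 4) in control and 64.3% ± 5.40 (SD, n = 4) in H1H2H2, where H1H2H2 8 was the lowest at 56.3% and the highest control was at 55%. Atp5b rose by 0.29 (SE 0.0888, adjusted p = 0.0441), a call that was lost without any 1 of the controls or of H1H2H2 9 to 11; without H1H2H2 8 it was 0.33 (adjusted p = 0.00977).

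**Figure D4:**
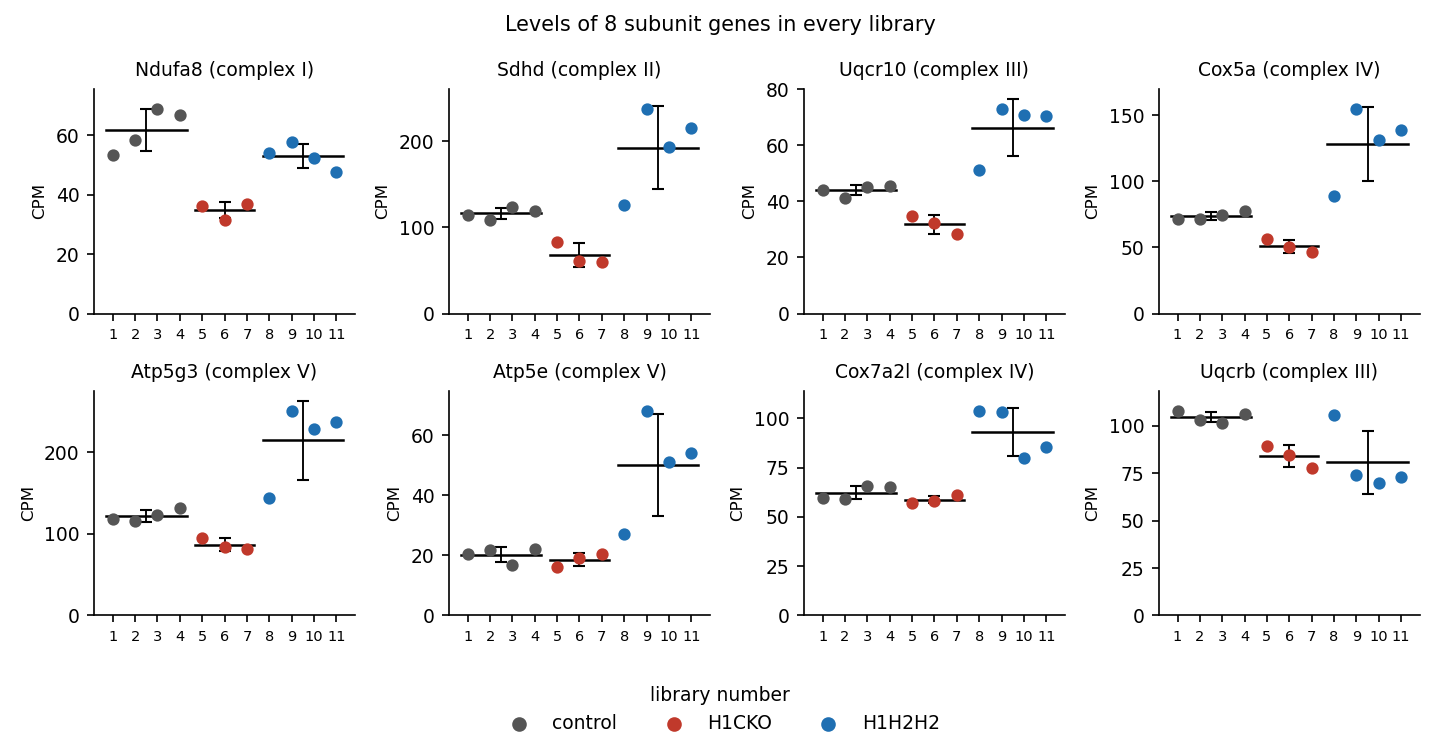
CPM of 8 subunit genes in each library (points), with the mean (bar) and SD (error bar) of each group. In Sdhd, Uqcr10, Cox5a, Atp5g3 and Atp5e, H1H2H2 8 lies between the controls and H1H2H2 9 to 11; in Uqcrb it lies with the controls, and in Cox7a2l with H1H2H2 9.

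The comparisons of both mutants share the control libraries, so the values of each are set side by side and no count is taken across them. Ndufs1 had -0.46 in H1CKO and 0.35 in H1H2H2, Sdhd -0.78 and 0.73, Cox5a -0.53 and 0.800, and Atp5g3 -0.49 and 0.82 on the log2 scale, each past the test in both. Ndufs6 had -0.58 and -0.43, and Uqcrb -0.32 and -0.37, lower than control in both, and Ndufa7 0.26 and 0.33, higher in both. The Uqcrb and Ndufa7 calls were each lost under 6 to 12 of 22 alternatives. Also lost under some alternatives, as given above, were the H1CKO calls of Cox5a and Atp5g3 and the H1H2H2 calls of Ndufs1, Sdhd and Ndufs6.

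The mutants were then tested against each other: 57 of the 80 subunit genes were higher in H1H2H2 than in H1CKO and 2 were lower, against 31.8% and 33.3% of all genes (65% in all). The groups did not overlap for 56 genes that were higher and 2 that were lower, where 29.7% and 32.6% of all genes behaved so. The median log2 difference was 0.45 over the subunit genes and -0.03 over all genes. Upper-quartile scaling moved the median of all genes to -0.14 and that of the subunit genes to 0.34, with 52 higher and 4 lower. The 2 that were lower were Cox6a2 and Ndufa4l2, which both passed the filter on low counts through H1CKO alone. By complex, 26 of 36 were higher in complex I, with all 7 core subunits among them, 3 of 4 in complex II, 9 of 10 in complex III, 7 of 13 in complex IV and 12 of 17 in complex V. Sdhd had the largest increase, a log2 fold change of 1.505 (SE 0.19, edgeR adjusted p = 2.52e-05), followed by Atp5e at 1.43 (SE 0.245, adjusted p = 0.000265), Ndufb6 at 1.36 (SE 0.202, adjusted p = 8.85e-05), Cox5a at 1.33 (SE 0.153, adjusted p = 1.22e-05) and Atp5g3 at 1.31 (SE 0.159, adjusted p = 1.9e-05). Uqcrb, the gene of complex III that did not pass, stood at -0.06 (SE 0.125, adjusted p = 0.71). Without H1H2H2 8 these increases were 1.67 for Sdhd, 1.64 for Atp5e, 1.53 for Ndufb6, 1.48 for Cox5a and 1.47 for Atp5g3, with 57 higher and 5 lower in all, and Uqcrb fell with -0.20 (adjusted p = 0.0143). The 57 became 45 with the length trend taken out, and lay between 56 and 58 over the libraries left out.

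Gene length moved with the groups. The subunit genes are short, with a median gene model of 731.5 bases against 2923 for all genes tested, and 51 of the 80 do not exceed 1000 bases. In H1CKO the median log2 fold change of all genes was -0.11 in the shortest of 5 bins (up to 500 bases) and 0.16 in the longest, and in H1H2H2 it ran from 0.13 to -0.07. Within the same length bins the subunit genes had medians of -0.27 to -0.30 in H1CKO, each below that of all genes in the bin. In H1H2H2 they had 0.43 in the shortest bin (14 genes), 0.04 in the next (37 genes, up to 1000 bases), where all genes had 0.05, and 0.32 in the bin after that (23 genes). The part of length in these results was not tested further than by taking out the trend, after which the medians of the subunit genes were -0.19 in H1CKO and 0.28 between the mutants.

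**Figure D5:**
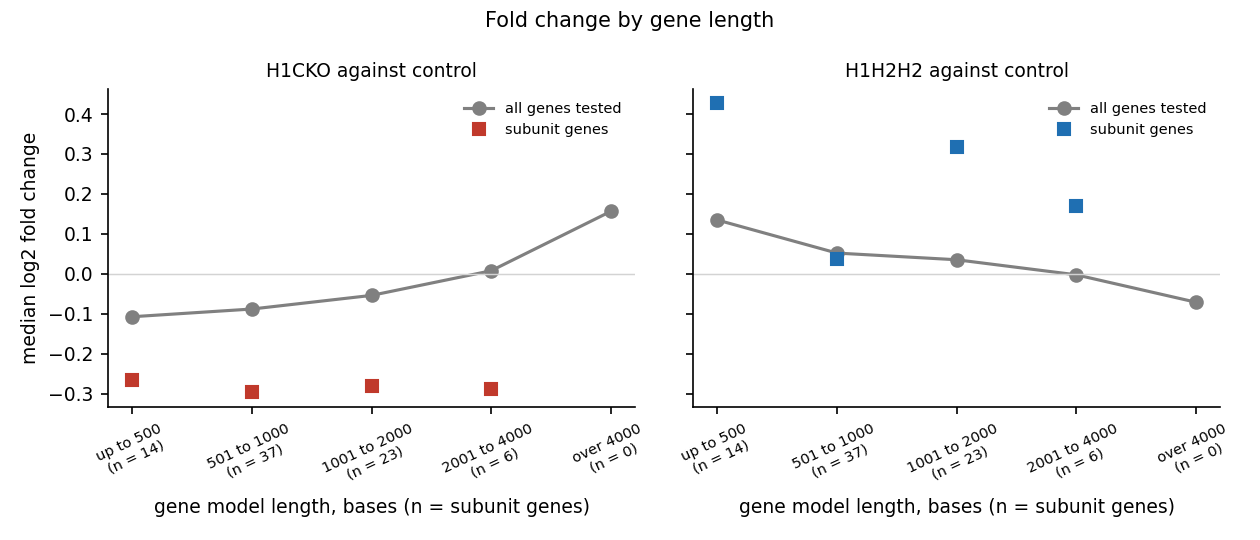
Median log2 fold change of all genes tested (grey) and of the subunit genes (coloured) by gene model length, in H1CKO and H1H2H2 against control. The grey line rises with length in H1CKO and falls in H1H2H2, and the subunit genes lie below it in H1CKO in every bin that holds any.

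Other mitochondrial genes, in lists chosen for their role, were read beside the subunits, against the 25.6% of all genes that fell and the 27% that rose in H1CKO and the 9.49% that rose in H1H2H2. In H1CKO, 13 of 19 tricarboxylic acid cycle genes fell, led by Suclg1 at -0.88 (SE 0.0956, adjusted p = 1.8e-05), with a list median of -0.46. Of 17 fatty acid oxidation genes 12 fell and 1 rose (median -0.41), with Cpt2, which brings acyl groups into the matrix, at -0.82 (SE 0.0897, adjusted p = 1.96e-05). Of 23 membrane and import proteins 20 fell (median -0.41), among them the fusion protein Mfn2 at -0.94 (SE 0.106, adjusted p = 2.36e-05). Assembly factors fell in 10 of 23 for complex IV, with Surf1 at -0.77 (SE 0.113, adjusted p = 0.000137), in 5 of 10 for complexes II and III, in 3 of 14 for complex I (21.4%, below that of all genes), where another 3 rose, and in 2 of 3 for complex V. Of 13 genes for cytochrome c and coenzyme Q synthesis 6 fell, among them Coq9 at -0.601 (SE 0.0961, adjusted p = 0.000251). In H1H2H2, 6 tricarboxylic acid cycle genes, 6 of fatty acid oxidation, 6 of membrane and import, 9 of complex IV assembly, 2 of complex II and III assembly (where 1 fell), 2 of cofactor synthesis and 1 of complex I assembly rose, the last being Tmem126b at 0.602 (SE 0.189, adjusted p = 0.0474), whose call was lost under 16 of 22 alternatives. That 1 of 14 (7.14%) is below the share of all genes. Without H1H2H2 8 the numbers that rose were 9, 9, 11, 13, 3, 6 and 8 in the same order, where 16.9% of all genes rose.

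Among 18 regulators of mitochondrial biogenesis, 4 fell and 3 rose in H1CKO, and 2 rose and 1 fell in H1H2H2, or 4 and 2 without H1H2H2 8. The shares of 22.2% and 16.7% in H1CKO are below those of all genes, and the 11.1% that rose in H1H2H2 is near that of all genes. Esrra, the estrogen-related receptor α, stood at 28.3, 32.3, 37.97 and 35.5 CPM in control, 20.1, 17.9 and 18.3 CPM in H1CKO and 37.3, 50.05, 42.1 and 45.9 CPM in H1H2H2. Its H1CKO libraries lay under all controls, with a log2 fold change of -0.84 (SE 0.126, edgeR adjusted p = 0.000162), while in H1H2H2 it rose with 0.39 (SE 0.112, adjusted p = 0.0361) and overlapped the controls through H1H2H2 8, without which it was 0.44 (adjusted p = 0.00727); the H1H2H2 call was lost under 9 of 22 alternatives. The mitochondrial DNA polymerase Polg fell in H1CKO (log2 change -0.59, SE 0.115, adjusted p = 0.00103) and rose in H1H2H2 (log2 change 0.596, SE 0.105, adjusted p = 0.00714, and 0.66 without H1H2H2 8). Nrf1, the factor of the motif searched above, did not pass against control in H1CKO (log2 change 0.14, SE 0.0706, adjusted p = 0.115) or H1H2H2 (log2 change -0.205, SE 0.0656, adjusted p = 0.0513), but between the mutants H1H2H2 was the lower (log2 change -0.35, SE 0.0706, adjusted p = 0.000974). Without H1H2H2 8 it also fell against control, at -0.26 (adjusted p = 0.00801). Of 10 hypoxia-induced regulators of respiration, a list that includes Ndufa4l2 and Cox4i2, 9 rose in H1CKO and 4 in H1H2H2, against 27% and 9.49% of all genes. The 9 include Ndufa4l2, which passed the filter on low counts through H1CKO alone. Pdk1, the kinase that keeps pyruvate out of the cycle, stood at 71.3, 62.4, 59.8 and 64.1 CPM in control, 163, 177 and 186 CPM in H1CKO and 81.2, 118, 86.2 and 81.1 CPM in H1H2H2, with a log2 fold change of 1.44 (SE 0.124, edgeR adjusted p = 5.19e-06) and of 0.51 (SE 0.116, adjusted p = 0.0168) in H1H2H2, a call lost once sex entered the fit or control 3 was left out; without H1H2H2 8 it was 0.54 (adjusted p = 0.0054). All libraries of both mutants lay above the controls, H1CKO highest. Beside these lists, 16 of 20 visceral endoderm markers fell in H1CKO and 2 rose, with Afp at -1.84 (SE 0.136, adjusted p = 2.49e-06). Among the 20, Alb passed the filter on low counts through H1CKO alone, so that a difference was built into its being tested. Of the 18 heart and 15 neural and somite markers tested, 8 and 14 passed the filter on low counts through H1CKO alone, so that no count of those that rose is given, and their summed levels stand above. In H1H2H2 2 of the 20 visceral endoderm markers (10%) rose, near the 9.49% of all genes. They were Amn at 0.42 (SE 0.116, adjusted p = 0.0313) and Afp at 0.42 (SE 0.119, adjusted p = 0.0355), calls lost under 7 and 8 of 22 alternatives. Without H1H2H2 8 these genes had 0.43 (adjusted p = 0.0173) and 0.45 (adjusted p = 0.013). In that fit 2 of the 20 rose, where 16.9% of all genes did. The part of these cell types in the subunit genes' values was not tested.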

How the data were processed

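Yolk sac RNA at embryonic day 9.5 was sequenced in 11 mRNA libraries (KAPA mRNA HyperPrep), per the labels' protocols. The deposited counts are raw reads per gene, with STAR 2.5.2b, featureCounts and Subread 1.5.1 on mm10 per the submitters' processing notes; the strand setting is not given in the sources used here. From these counts, genes were filtered with filterByExpr (14671 of 15061 kept), scaled by TMM and fitted with edgeR 4.0.16 (R 4.3.3) quasi-likelihood over all 11 libraries, with Benjamini-Hochberg adjustment over all genes tested and a threshold of 0.05. Genotype was the only term, with a common coefficient of variation of 0.171. The authors' deposited table of log2 fold changes and p-values was read for comparison and called 2 subunit genes higher and 50 lower in H1CKO, 31 and 4 in H1H2H2, and 57 and 2 between the mutants. The deposited signed fold score, a fold change given below 0 for a fall per the file headers, was not used.

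CPM are TMM-normalised; levels per length divide by the deposited gene length. Near-identical genes share at least 100 bases at 95% identity (BLAST+ 2.17.0, GENCODE vM21 transcripts). Of the 46 subunit genes with none, 26 fell and 3 rose in H1CKO, where 25.6% and 27% of all genes did so. In H1H2H2, 17 of the 46 rose and 1 fell, where 9.49% and 7.16% of all genes did so. The counting interval and floor of 3 counts cover counting error only, since reads carry no molecular identifiers. Members and lists were chosen with earlier results of these data known. Named members were those called with the highest or lowest fold change or 3 smallest p per complex and comparison, up to 10 by smallest p, the extremes of level, all Sdh genes, Cyc1, Cycs and the isoforms with their counterparts; other lists gave up to 3 genes. Exceptions are named as such, and Nrf1 against control was added as the factor of a motif. Alternatives were other scalings and filters, DESeq2 1.42.0, limma-voom (limma 3.58.1), fits of 2 groups, a term for sex, globins and Rn45s left out, each library left out and, chosen after seeing the data, trends with length and GC content taken out. The code was tested on simulated data.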

Additional observations from a re-analysis of the deposited data

Results flagged for a closer look

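Among 81 groups of 4 libraries tested over 41 named subunit genes, 8 held 1 library far from the other 3 (a gap to the nearest above Dixon's 95% critical share of the group's range). Chance gives about 1 in 20 such groups. Of the 8, 6 were in H1H2H2, with 4 on H1H2H2 8, and 2 in control. The control flag of Cox6a2 rests on 1 read, with 0 in the other libraries. Such counts always give a gap of the full range, so the chance rate does not apply to that flag.

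Uqcrb was high in H1H2H2 8, at 105.7 CPM, while the other 3 had 69.9 to 74.36 CPM. Uqcr10 was low in H1H2H2 8, at 51.18 CPM against 70.36 to 72.74 CPM. Cox7b was low in the same library, at 73.27 CPM against 102.4 to 103.1 CPM. Ndufs1 was low there too, at 132.4 CPM against 167.5 to 172.9 CPM.

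Atp5g1 was high in H1H2H2 9, at 106.6 CPM against 90.56 to 92.95 CPM. Cox8a was also high in H1H2H2 9, at 154.6 CPM against 132 to 135.2 CPM. Cox6b2 was low in control 3, at 0.6701 CPM against 2.344 to 2.514 CPM. Cox6a2 had its only control read in control 4, at 0.0662 CPM, with 0 in the others.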

How the results depend on the processing

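Over 22 alternatives no median of the subunit genes and no named call changed direction. The near-zero median of all genes turned sign under some: in H1CKO, for example, it went from 0.03 to -0.01 with no filter, where 24.7% of all genes rose and 27.4% fell, and between the mutants from -0.03 to 0.01 in a fit of 2 groups. The median log2 fold change of the subunit genes lay between -0.35 and -0.19 in H1CKO, 0.13 and 0.19 in H1H2H2, and 0.28 and 0.52 between the mutants. Calls kept by all 22 were 2 higher and 23 lower in H1CKO, 13 higher in H1H2H2, and 45 higher and 2 lower between the mutants. The 2 higher in H1CKO and the 2 lower between the mutants were Cox6a2 and Ndufa4l2. Both were tested only because H1CKO was high, so that their being kept adds no support. The 43 lower in H1CKO became 26 with the length trend taken out, where 24.3% of all genes fell, and 32 with a term for sex, where 20.2% fell. Other H1CKO calls lost with that term were those of Sdha, Cyc1 and Ndufa7, which had -0.23, -0.37 and 0.29 under it. The 28 higher in H1H2H2 became 15 with a term for sex, and the 4 lower became 2 in a fit of 2 groups and 1 with a term for sex. The 2 lower between the mutants became 4 with upper-quartile scaling and 7 with the length trend taken out. The cause was not tested. Leaving out 1 library gave 2 to 3 higher and 32 to 54 lower in H1CKO, 14 to 39 higher and 0 to 10 lower in H1H2H2, and 56 to 58 higher and 2 to 5 lower between the mutants. Without H1H2H2 8 these were 39 higher and 10 lower in H1H2H2 and 5 lower between the mutants. Where edgeR called 0 lower, 4 to 11 were lower at an unadjusted p under 0.05, and with all libraries DESeq2 and limma-voom each called 4. Of 88 named calls tested again, 23 were lost under at least 1 alternative. No paired analysis was possible because the replicate numbers run from 1 to 11 and none is shared between groups. Depth limits Cox6a2, Ndufa4l2 and Cox4i2, which had 1, 30 and 43 reads over the control libraries.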
